A study of Homo sapiens with 3 samples.

Results

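The 10 genes NFKB1, NFKB2, RELB, NFKBIA, TNFAIP3, BIRC3, TNFAIP2, ICAM1, SOD2 and LCN2 are subunits of the transcription factor NF-kB, its inhibitors and targets that it induces. They were measured as RNA in 3 lung cancer lines. ER1 and ER2 are, per the labels, clonal populations that grew out of HCC827 under erlotinib, an EGFR inhibitor, and resist it. Parental HCC827 is a lung adenocarcinoma line that carries a mutated EGFR and was sensitive to the drug. A gene entered when at least 1 probe set of the array was annotated with its symbol and no other. This held for 9 of the 10 genes, among 17689 genes so named, and 16 probe sets read them. No probe set in the annotation used carried the symbol BIRC3, an inhibitor of apoptosis that also puts ubiquitin on NF-kB signalling complexes, and BIRC3 is not analysed here.

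NF-kB is a family of dimers built from NFKB1, NFKB2, RELA, RELB and REL. In resting cells the dimers are held in the cytoplasm by inhibitors such as NFKBIA. In the canonical branch, cytokine receptors or Toll-like receptors activate a kinase complex that marks NFKBIA for destruction, which frees dimers of RELA with the processed NFKB1 product. In the non-canonical branch, the kinase MAP3K14 triggers processing of the NFKB2 precursor, which frees its dimer with RELB. Several targets restrain the pathway in turn, among them NFKBIA and the ubiquitin-editing enzyme TNFAIP3, so their RNA is commonly read as a sign of NF-kB activity.

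NF-kB dimers bind the kB motif, a 10-base consensus. It was searched on both strands in the 250 bases before each annotated start site in RefSeq (GRCh38.p14), with a match on both strands at 1 place counted once and overlaps with other motifs not considered. The consensus occurred in 6.88% of 35116 such windows and at least 2 times in 0.928% of them. Of the 10 genes, all but RELB had windows in that table, 15 in all, and 6 windows of 5 genes held a match. The windows of 4 genes with a match and an array value are shown because they can be set against those values. Capitals mark the matches, and each sequence runs 5′ to 3′ on the strand of its gene.
TNFAIP3, chr6:137867009-137867258, plus strand: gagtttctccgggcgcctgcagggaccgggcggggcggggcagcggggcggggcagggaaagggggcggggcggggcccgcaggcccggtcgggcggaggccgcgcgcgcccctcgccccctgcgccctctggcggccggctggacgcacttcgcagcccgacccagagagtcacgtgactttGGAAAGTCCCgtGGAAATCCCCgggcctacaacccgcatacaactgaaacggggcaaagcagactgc
NFKBIA, chr14:35404750-35404999, minus strand: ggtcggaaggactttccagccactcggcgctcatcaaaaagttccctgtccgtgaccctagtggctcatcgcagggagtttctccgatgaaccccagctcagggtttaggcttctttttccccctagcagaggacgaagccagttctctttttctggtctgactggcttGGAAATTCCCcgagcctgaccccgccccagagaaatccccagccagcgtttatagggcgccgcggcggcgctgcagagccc
NFKB1, chr4:102501109-102501358, plus strand: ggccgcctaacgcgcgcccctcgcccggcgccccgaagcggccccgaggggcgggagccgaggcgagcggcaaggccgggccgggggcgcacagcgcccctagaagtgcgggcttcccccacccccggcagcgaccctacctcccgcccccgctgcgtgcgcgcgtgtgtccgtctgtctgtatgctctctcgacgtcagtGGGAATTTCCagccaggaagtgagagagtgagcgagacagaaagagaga
NFKB2, chr10:102394328-102394577, plus strand: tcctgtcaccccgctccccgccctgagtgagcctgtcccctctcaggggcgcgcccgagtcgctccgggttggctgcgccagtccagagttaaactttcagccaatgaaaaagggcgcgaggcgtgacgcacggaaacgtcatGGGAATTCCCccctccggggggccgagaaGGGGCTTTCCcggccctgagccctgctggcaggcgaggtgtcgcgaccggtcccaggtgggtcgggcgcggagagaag
TNFAIP3 had 2 matches, at 67 to 58 and at 55 to 46 bases before its start site. NFKBIA had 1, at 81 to 72 bases, and NFKB1 had 1, at 49 to 40 bases before the first of its 2 start sites. NFKB2 had 2 in each of 2 windows, of which the window with matches at 107 to 98 and 78 to 69 bases is shown. The fifth gene with a match was BIRC3, at 199 to 190 bases. TNFAIP2, ICAM1, SOD2 and LCN2 had none, which says only that this consensus is not in these windows.

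**Figure D1:**
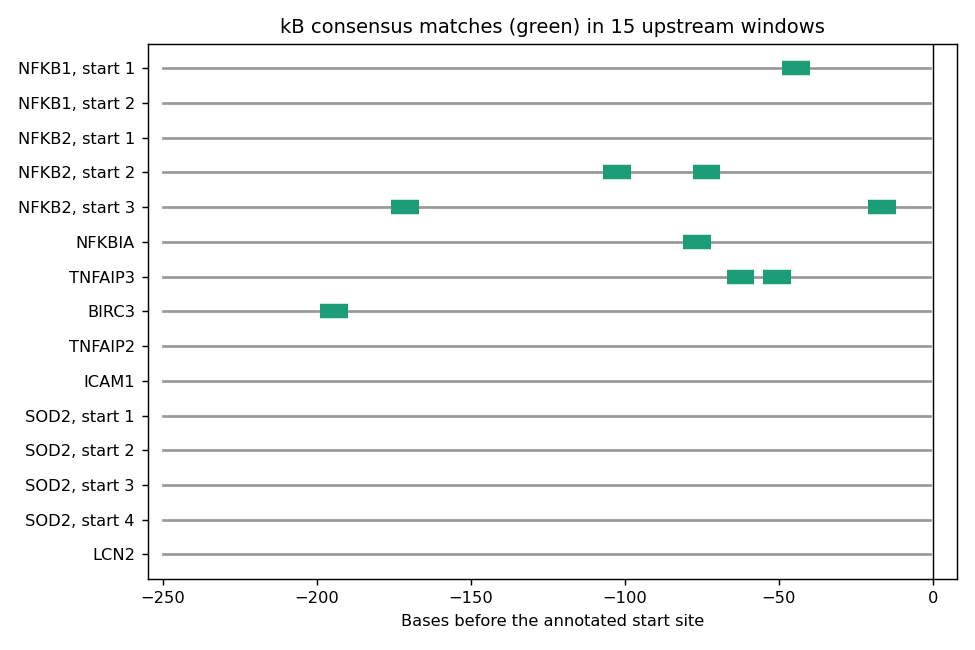
Matches to the kB consensus (green blocks) in the 250 bases before each annotated start site, with distance in bases on the horizontal axis and 1 line for each of 15 windows of 9 genes. Starts of 1 gene are numbered in the direction of transcription, and the 4 genes TNFAIP2, ICAM1, SOD2 and LCN2 show no block.

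Each line was read on 1 array, so cultures of 1 line cannot be compared and no difference was tested. A gene is called higher or lower when it differs by 1 or more on the log2 scale (2-fold), and its value is the mean over its probe sets. The deposited values had been centred for each probe set on an unstated constant. A value therefore says where an array stands relative to the other arrays, in centred log2 units, and not how abundant the RNA is, so the presence of epithelial markers in these carcinoma lines could not be checked as a level. An identity check read 8 genes that can tell lines apart. It found 2 arrays, ER1 and ER2, apart from the parental array at 2-fold or more, each in 6 of the 8 genes. Being centred, these values do not show whether a gene is present or absent, and the source of the difference was not tested. Differences acquired under erlotinib and differences between lines of separate origin therefore cannot be told apart, and no comparison is left without those 2 arrays. The labels name erlotinib and its solvent but do not say which of them each culture received before lysis.

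In both resistant clones, TNFAIP3 and RELB were at least 2-fold higher than in parental HCC827, and the other 7 measured genes lay within 1.5-fold. That is 2 of 9 genes higher and 0 lower in each clone. The higher share over all 17689 genes was 4.29% for ER1 and 4.54% for ER2, and the lower share was 1.84% for ER1 and 1.76% for ER2. The median difference over the 9 genes was 0.21 in ER1 and 0.02 in ER2, against medians over all genes of −0.06 and −0.05. The 2 comparisons share the parental array, and the genes were chosen with earlier results of these data known. At a threshold of 1.5-fold the same 2 genes were counted in each clone, where 13.9% of all genes differed in either direction in ER1 and 14.9% in ER2. At 3-fold, TNFAIP3 was the gene counted, and 2.71% and 2.76% of all genes differed.

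**Figure D2:**
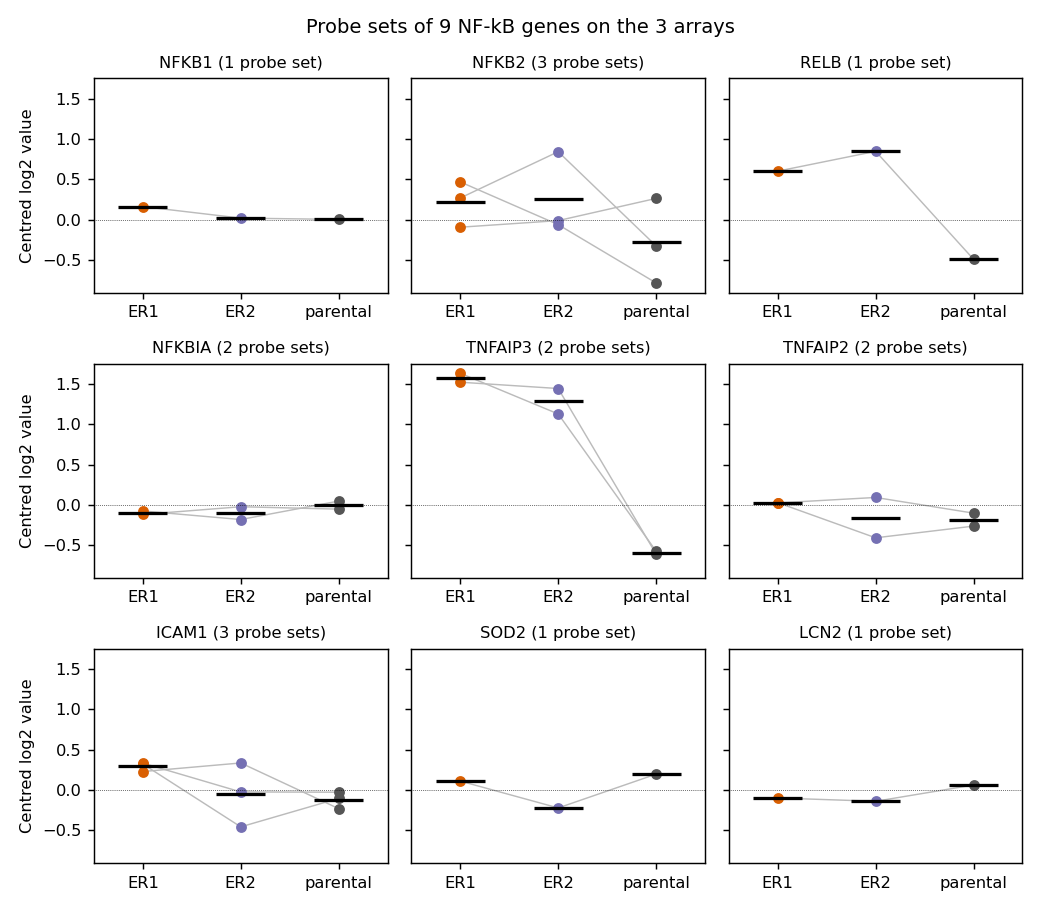
Centred log2 value (vertical axis) of each probe set of the 9 measured genes on the ER1, ER2 and parental arrays. Points are single probe sets, grey lines join the readings of 1 probe set and black bars are the mean over probe sets; the TNFAIP3 points lie at 1.63 and 1.52 in ER1 and at 1.13 and 1.44 in ER2, against −0.57 and −0.61 in the parental line.

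Among the subunits, RELB, the partner of NFKB2 in the non-canonical branch, stood apart from the parental array. Its single probe set, 205205_at, read 0.60 in ER1 and 0.85 in ER2, against −0.49 in the parental line. Both clones lay above the parental array, by 1.09 in ER1 (2.13-fold) and by 1.34 in ER2 (2.53-fold). In the order of all 17689 genes from the highest difference down, RELB was number 672 in ER1 and number 548 in ER2.

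NFKB2, the precursor that RELB pairs with, averaged 0.22 in ER1 and 0.26 in ER2, against −0.28 in the parental line. These means gave differences of 0.50 and 0.54, below 2-fold, and they covered probe sets that went opposite ways. Probe set 207535_s_at was higher by 1.25 in ER1 and by 0.72 in ER2. Probe set 209636_at was higher by 0.59 in ER1 and by 1.17 in ER2, so each of these probe sets passed 2-fold in a different clone. The remaining probe set, 211524_at, was lower in both clones, at −0.36 and −0.28. The array thus gave no single direction for NFKB2 RNA.

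NFKB1, the precursor subunit of the canonical branch, read 0.16 in ER1 and 0.02 in ER2, against 0.00 in the parental line, on its single probe set 209239_at. The differences of 0.16 and 0.02 were small beside the disagreement between probe sets of the same gene, whose pooled SD over all genes was 0.377 for ER1 minus parental and 0.437 for ER2 minus parental. Such probe sets are repeat readings of 1 RNA sample, not replicates. RELA, the transactivating subunit that pairs with NFKB1, differed by 0.04 in ER1 and by −0.13 in ER2 over 2 probe sets.

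REL, a further transactivating subunit best known from lymphoid cells, was near the parental array in ER1 and below it in ER2. It averaged −0.02 in ER1 and −0.53 in ER2, against 0.11 in the parental line, which gave differences of −0.12 and −0.63 over 5 probe sets. In ER2 all 5 probe sets were lower than in the parental line, from −1.26 to −0.11, whereas in ER1 they ran from −0.28 to 0.09. Control probe sets also moved on the ER2 array. The 5′ minus 3′ difference for ACTB was 0.09 in ER1 and −0.28 in ER2, against 0.03 in the parental line, and for GAPDH it was −0.01 in ER1 and −0.21 in ER2, against 0.01. The part of that shift in the REL values was not tested.

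Of the inhibitors, TNFAIP3 had the largest difference of the 9 genes, and NFKBIA had almost none. TNFAIP3 removes and edits ubiquitin chains on signalling complexes and so ends NF-kB signalling. Its probe set 202643_s_at read 1.63 in ER1 and 1.13 in ER2, against −0.57 in the parental line. The other, 202644_s_at, read 1.52 in ER1 and 1.44 in ER2, against −0.61. Both probe sets thus placed both clones well above the parental array. The mean difference was 2.17 in ER1 (4.49-fold) and 1.88 in ER2 (3.67-fold), numbers 256 and 323 in the order of all genes. Both probe sets carry the suffix of sets whose probes can match several transcripts, so TNFAIP3 has no value without such sets.

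NFKBIA, the inhibitor that is resynthesised first when NF-kB is active, averaged −0.10 in ER1 and −0.10 in ER2, against −0.00 in the parental line. Its differences were −0.09 and −0.10. Probe set 201502_s_at gave −0.07 in ER1 and 0.03 in ER2, and probe set 231699_at gave −0.12 and −0.23, so neither reading showed a higher value in both clones. Its upstream window holds a kB match as that of TNFAIP3 does, and the values of the 4 genes whose windows are printed reached in ER1 from −0.09 (NFKBIA) to 2.17 (TNFAIP3), and in ER2 from −0.10 to 1.88.

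**Figure D3:**
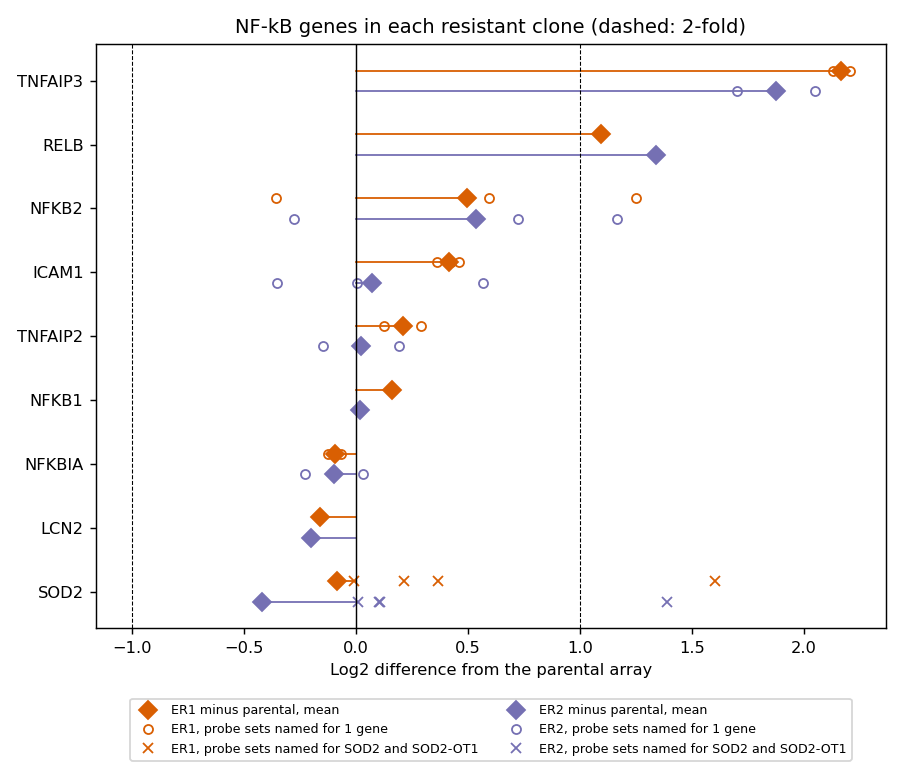
Log2 difference from the parental array (horizontal axis) for the 9 genes in ER1 and ER2. Diamonds are means over probe sets named for 1 gene, open circles those probe sets, crosses the 4 probe sets annotated with both SOD2 and SOD2-OT1, and dashed lines mark 2-fold; only the TNFAIP3 and RELB diamonds lie beyond the dashed lines, while NFKB2 circles fall on both sides of 0.

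In their gene values, the effector genes described here stayed near the parental line. Probe set 221477_s_at, annotated with both SOD2 and SOD2-OT1 and outside those values, did not (1.60 in ER1 and 1.39 in ER2). TNFAIP2, a cytokine-induced protein linked to membrane protrusions, averaged 0.03 in ER1 and −0.16 in ER2, against −0.18 in the parental line, a difference of 0.21 in ER1 and 0.02 in ER2. ICAM1, the endothelial and epithelial adhesion molecule for leukocyte integrins, averaged 0.29 in ER1 and −0.05 in ER2, against −0.12 in the parental line. In ER1 its 3 probe sets were close together, higher by 0.36, 0.46 and 0.43. In ER2 they spread, at 0.00 for 202637_s_at, 0.57 for 202638_s_at and −0.35 for 215485_s_at, with a mean of 0.07. ICAM1 thus had a small and even difference in ER1 and no single direction in ER2.

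LCN2, a secreted siderophore-binding protein of innate immunity, read −0.10 in ER1 and −0.14 in ER2, against 0.06 in the parental line, on 1 probe set. Its differences of −0.16 and −0.20 were on the lower side in both clones. For SOD2, the mitochondrial superoxide dismutase, the choice of probe sets decided the direction. The only probe set annotated with SOD2 alone, 1566342_at, read 0.11 in ER1 and −0.22 in ER2, against 0.20 in the parental line, that is −0.09 and −0.42. A further 4 probe sets are annotated with both SOD2 and SOD2-OT1, a transcript named for its overlap with SOD2. One of them, 221477_s_at, read 0.01 in ER1 and −0.20 in ER2, against −1.59 in the parental line, and so was higher by 1.60 and 1.39. For the other 3 the differences were −0.01, 0.22 and 0.37 in ER1, beside 0.01, 0.11 and 0.10 in ER2. With all 5 averaged, SOD2 was at 0.42 in ER1 and 0.24 in ER2.

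Of the other NF-kB pathway genes, 98 were listed by role and 87 had a value. Of these 87, 7 were at least 2-fold higher in ER1 and 5 in ER2, while 2 were lower in each clone. Over all genes, the higher share was 4.29% for ER1 and 4.54% for ER2, and the lower share was 1.84% and 1.76%. The medians over the 87 genes, 0.04 and 0.02, lay near those over all genes. The genes past 2-fold were ligands, receptors, effector targets and 1 kinase. In the lists of inhibitors, feedback enzymes and survival genes, TNFAIP3 was the only gene past 2-fold in either clone.

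The ligands that feed the pathway held the largest differences. IL1B, which activates NF-kB through the interleukin-1 receptor, was higher by 2.79 in ER1 and by 2.57 in ER2, and its 2 probe sets differed by less than 0.1 in each clone. It read 1.91 in ER1 and 1.69 in ER2, against −0.88 in the parental line. TNFSF13B, a B cell survival factor that signals through the non-canonical branch, was higher by 1.35 and 1.41. IL18, a relative of IL1B, was higher by 1.00 in ER1, at the threshold, and by 0.78 in ER2. TNFSF15, a ligand of the tumour necrosis factor family, was at −1.94 in ER1 and at −1.68 in ER2, with readings of −1.31 in ER1 and −1.05 in ER2, against 0.63 in the parental line. TNF itself was at 0.58 and 0.90, below 2-fold.

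Among 14 receptors, TLR4, the receptor for bacterial lipopolysaccharide, was higher by 1.64 in ER1 and by 1.62 in ER2. Its 3 probe sets were all on the higher side, at 1.14, 2.15 and 1.62 in ER1 and at 1.13, 1.43 and 2.30 in ER2. IL18R1, a subunit of the IL18 receptor, was at 1.12 and 0.96. TLR5, the flagellin receptor, was at −0.51 in ER1 and, past 2-fold, at −1.35 in ER2, on 1 probe set. The receptors for tumour necrosis factor and for interleukin-1 stayed close to the parental values, with TNFRSF1A at 0.03 and 0.21 and IL1R1 at −0.07 and −0.24.

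The kinase layer gave 1 gene at 2-fold. MAP3K14, which starts the non-canonical branch, read −0.63 in ER1 and −0.38 in ER2, against 0.44 in the parental line, which gave −1.07 and −0.83 on its single probe set, so that it was 2-fold lower in ER1. The list of the kinase complex and upstream kinases also holds genes that are not kinases, such as MYD88 and TRADD. Its medians were −0.07 in ER1 and −0.24 in ER2 over 19 genes. The catalytic kinases CHUK and IKBKB were at 0.33 and 0.46 in ER1 and at 0.07 and 0.30 in ER2.

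Effector targets were mostly near the parental values, with 2 of 20 higher in each clone and 0 lower. Over all genes, 4.29% were higher in ER1 and 4.54% in ER2, and 1.84% and 1.76% were lower. The 2 higher targets were PTX3, a secreted pattern-recognition protein, at 2.31 and 2.20, and SLC2A6, a lysosomal sugar transporter, at 1.84 and 1.94. Below 2-fold, GCH1 was at 0.77 and 0.78, PTGES at 0.84 and 0.55 and CD83 at 0.64 and 0.60. TNFSF10 was lower in both clones, at −0.52 and −0.65. The prostaglandin synthase PTGS2 was at 0.20 and −0.26, VCAM1, an adhesion molecule induced in endothelium, at 0.18 and 0.18, and the complement factors C3 and CFB lay between −0.27 and 0.12. The median over these 20 genes was 0.13 for ER1 and 0.11 for ER2.

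**Figure D4:**
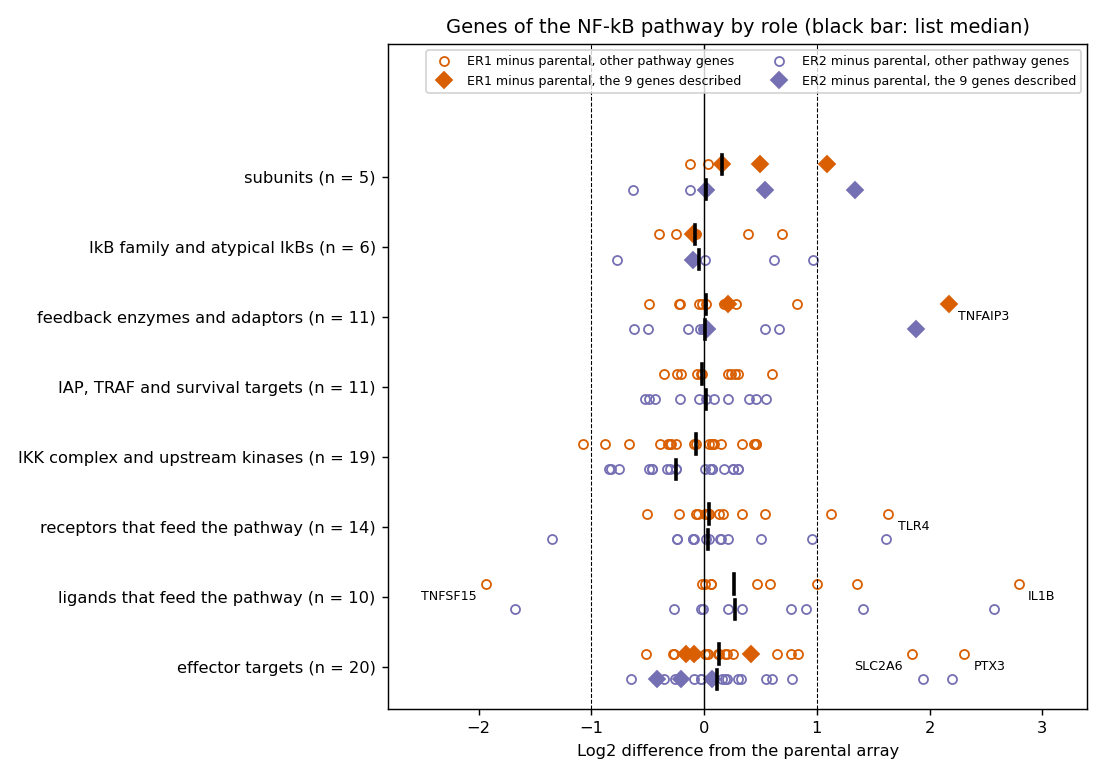
Log2 difference from the parental array (horizontal axis) of 96 measured NF-kB pathway genes in 8 role lists, for ER1 and ER2. Filled diamonds are the 9 genes described above, open circles other genes, black bars list medians and dashed lines 2-fold. List medians lie between −0.24 and 0.28. IL1B, PTX3, TNFAIP3, RELB, TLR4, TNFSF13B and SLC2A6 lie beyond the right dashed line in both clones. To the left lie TNFSF15 in both clones, MAP3K14 in ER1 and TLR5 in ER2.

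Markers of cells that express many of the same targets were examined beside these values. Of 12 blood and immune cell genes, 9 had a value, and their medians were −0.01 in ER1 and 0.02 in ER2. FCER1G, an Fc receptor chain, was at 0.89 and 1.11, the monocyte gene CD14 at 0.46 and 0.44 and the T cell gene CD3D at 0.28 and 0.59. TYROBP was at −0.20 and −0.36 and AIF1 at −0.16 and −0.19, and the pan-leukocyte gene PTPRC, CD3E, MS4A1 and CSF1R lay between −0.05 and 0.04 in both clones. Among 9 fibroblast genes, LUM (1.77 and 2.00) and FAP (1.62 and 1.56) were 2-fold higher, COL1A1 was at 0.50 and 0.58, and COL1A2, COL3A1, DCN, PDGFRA, PDGFRB and THY1 stayed between −0.18 and 0.17 in both clones. The 5 endothelial genes stayed between −0.38 and 0.61 in both clones. Of 8 epithelial genes, none reached 2-fold in ER1 and 3 were lower past it in ER2: CDH1 (−0.70 and −1.28), CLDN7 (−0.99 and −1.17) and ESRP1 (−0.96 and −1.22). In ER1, CLDN7 and ESRP1 lay just short of the threshold. Over all genes, 1.84% were 2-fold lower in ER1 and 1.76% in ER2, and 4.29% and 4.54% were higher. The part of any of these markers in the NF-kB values was not tested.

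Between the clones, 0 of the 9 genes differed at 2-fold, nor at 1.5-fold or 3-fold. Of all genes, 0.0396% were at least 2-fold lower in ER2 and 0% higher; 0.984% differed by 1.5-fold in either direction, and 0% by 3-fold. The 9 genes ran from −0.34 (ICAM1) to 0.25 (RELB), with a median of −0.14 against 0.02 over all genes. For this comparison the pooled SD between probe sets of the same gene was 0.26. All 9 genes lay within the central 95% of genes, from −0.42 to 0.39. TNFAIP3 had a difference of −0.29 that came mainly from 202643_s_at (−0.50) and little from 202644_s_at (−0.08). The largest single reading was that of ICAM1 probe set 215485_s_at, −0.46 in ER2 and 0.32 in ER1, a difference of −0.78. The control transcripts moved the same way, with a 5′ minus 3′ shift of −0.37 for ACTB and −0.20 for GAPDH between the ER2 and ER1 arrays, and its part in these values was not tested.

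By distance over the differences of both clones from the parental array, the genes with values most like those of TNFAIP3 were SLC2A10, WT1 and SNAP25, at distances of 0.07, 0.07 and 0.07 log2 units. Their differences were 2.12 and 1.84 for SLC2A10, 2.12 and 1.83 for WT1 and 2.21 and 1.82 for SNAP25. This likeness rests on 3 arrays.

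The authors' deposited tables of genes higher in each clone list TNFAIP3 alone of the 9 measured genes, and those of lower genes list none. In the authors' deposited table for ER1, TNFAIP3 has log2 fold changes of 1.95 and 1.98, and in that for ER2, 2.15 and 2.32. The order of the clones is the reverse of that on the arrays, where ER1 was the higher. The same holds for IL1B, at 2.65 and 2.72 for ER1 and 3.29 and 3.47 for ER2 in the authors' deposited tables. Its array differences were 2.79 and 2.57. PTX3 kept the array order, at 2.11 for ER1 and 1.69 for ER2 in the authors' deposited tables. Its array differences were 2.31 and 2.20. SLC2A6 was higher in ER1 in the authors' deposited tables (1.93 against 1.70) and higher in ER2 on the arrays (1.94 against 1.84). On the arrays, ER2 minus ER1 ran from −0.29 (TNFAIP3) to 0.10 (SLC2A6) in these genes, beside a pooled SD of probe sets of 0.26. The array order of the clones is therefore uncertain for them. Over all listed symbols with an array value, the array difference was a median of 0.85 of the authors' log2 change for ER1 and 0.70 for ER2, in the authors' deposited tables of higher genes. The smallest fold in any of the authors' deposited tables is 3.001, and RELB is not listed in them. Of the other pathway genes, IL1B, PTX3, SLC2A6 and TLR4 stand in the authors' deposited tables of both clones, TNFSF13B in that of ER1 and IL18R1 in that of ER2. The baseline of these tables is not stated in them.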

How the data were processed

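RNA of 3 lines was read on 1 biotin-labelled array each. The table the authors deposited holds log2 values of 43946 Affymetrix probe sets; the submitters' processing notes name RMA, without a version. The log2 scale was compared with the authors' deposited tables. The median ratio of array difference to the authors' log2 change was 0.85 and 0.87 for genes higher and lower in ER1. For genes higher and lower in ER2 it was 0.70 and 0.54. The ratios were below equality and the baseline of those tables is not stated, so this comparison could not settle the scale. Array medians were −0.02 (ER1), −0.01 (ER2) and 0.01 (parental). The values were taken as centred per probe set, which these medians alone do not show. The centring constant is unknown, and direction was taken from the column labels. Per the file headers, the authors' gene lists hold a signed fold-change score and its log2 for listed genes, used as given.

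Annotation gave 1 symbol to 34856 probe sets, several to 1589 and none to 7461, and 40 were controls. Gene identifiers of all 9 measured members matched RefSeq GRCh38.p14. Gene values were means over probe sets (Python 3.11.15, pandas 2.3.3). The calculation was tested on simulated data in which all probe sets of a gene changed alike, so probe sets that disagree were not covered. Each clone was compared with the parental line, and ER2 with ER1, counting genes at 2-fold. A single array per line allows no test, and precision is limited by this number of arrays. Named were all members, RELA, REL, pathway genes at 2-fold in either clone and the 3 genes nearest to the member with the largest difference; further pathway genes below 2-fold, and cell type markers, were named after their values were seen. Members and lists were chosen with earlier results of these data known. Alternatives were the median or the widest-ranging probe set, fewer or more probe sets, array centring and other fold thresholds.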

Additional observations from a re-analysis of the deposited data

Results flagged for a closer look

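Probe set 221477_s_at, annotated with both SOD2 and SOD2-OT1 and so outside the gene values, was higher than in the parental line by 1.60 in ER1 and by 1.39 in ER2, past 2-fold, while the probe set annotated with SOD2 alone was not. RELA had opposite signs in the clones, 0.039 in ER1 and −0.13 in ER2. Both values are small, and the difference between the clones was not tested.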

How the results depend on the processing

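The number of genes 2-fold apart from the parental line was 2 in ER1 and 2 in ER2 with the median of the probe sets, with probe sets of several genes added, with arrays centred on their medians and at 1.5-fold. With the probe set of the largest range it was 3 in ER1, where NFKB2 passed too, and 2 in ER2. It was 1 in ER1 and 1 in ER2 at 3-fold, and 1 and 1 without sets suffixed _s_at, _x_at or _a_at, where 6 genes kept a value and TNFAIP3 did not. TNFAIP3 and RELB kept their direction under every alternative that gave them a value, but much of this was fixed in advance. RELB has 1 probe set, without such a suffix, so the choice of probe sets could not change its value. For TNFAIP3, with 2 probe sets, the median is the same as the mean, and no probe set of several genes could be added. Values that moved past the pooled SD of probe sets belonged to NFKB2, ICAM1 and SOD2. For NFKB2, ER1 minus parental was 1.25 with the widest-ranging probe set and 0.12 without the suffixed sets. Quantile normalization was not run, because the values are centred. With 1 array per line, no spread between cultures could be set beside any value.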

Other observations

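Some other pathway regulators, picked after their values were seen, moved by less than 2-fold. NFKBIE, an inhibitor of the IkB family, was at 0.69 in ER1 and 0.96 in ER2. TNIP1, an adaptor that works with TNFAIP3, was at 0.83 and 0.66. NFKBIZ, an atypical nuclear IkB protein, was at −0.40 and −0.77, and the kinases TBK1 (−0.66 and −0.84) and MAP3K8 (−0.88 and −0.75) were on the lower side in both clones. Over 11 measured survival genes, the median ER2 minus ER1 difference was −0.01. The lowest were XIAP, CFLAR and BCL2L1, at −0.41, −0.29 and −0.17, while TRAF6, TRAF1 and TRAF5 were at 0.19, 0.10 and 0.09.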
